A study of Mus musculus with 100 samples.

Results

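Line F KSR2 is a female mouse induced pluripotent stem cell (iPSC) line in which nearly all allelic RNA of chromosome 6 came from the maternal C57BL/6J (BL6) genome, and this account describes the expressed genes of that chromosome. The genes were chosen by position and level, as those of chromosome 6 with a value above 2 in each of the 12 iPSC libraries on the log2 RPM scale (RPM, reads scaled to the depth of the library). The rule found 409 of the 1329 chromosome 6 genes and of the 25965 genes in the table. These 409 entries carry 407 gene symbols, since 2 symbols have an entry for each of 2 separate stretches. Gm16039, Acrbp and Zfp248 lay just inside the limit, with lowest values from 2.07 to 2.13, and C530028O21Rik, Zfp239 and Ccdc136 just outside it, with 1.98 to 1.99.

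The 4 iPSC lines, the females F KSR2 and F KSR4 and the males M KSR3 and M KSR5, were reprogrammed in medium with knockout serum replacement (KSR) from fibroblasts of hybrid embryos. All of these embryos had an i4F-BL6 mother, which carries a doxycycline-inducible cassette of the Yamanaka factors, and a Mus musculus castaneus (CAST/EiJ) father, so that BL6 reads are maternal and CAST reads paternal in each line. Each line was grown from a picked colony and stands for a single clone, and both female lines go back to the same female embryo, so that F KSR2 against the other lines compares clones and not a treatment. Female MEFs, the fibroblasts before reprogramming, and TX 2i ESCs, female embryonic stem cells of the same parental strains (BL6 maternal, CAST paternal) kept in medium with kinase inhibitors, were used for reference values. Each of the 6 groups had 3 libraries. The fibroblasts came from mid-gestation embryos at an early passage, and the iPSC lines were analysed several weeks after their colonies had been picked and taken off doxycycline.

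In uniparental disomy, both copies of a chromosome come from the same parent. The number of gene copies stays normal, but a gene whose parental alleles are transcribed unequally has the stronger or the weaker allele on both copies, and an imprinted gene, which is read from the maternal or the paternal allele only, loses its active copy or gains a further one. Mouse chromosome 6 holds the imprinted domains around Peg10 and around Mest, both paternally expressed, and maternal disomy of its proximal part is known to be lethal in the early embryo. In a BL6 and CAST hybrid, the BL6 share of a gene in balanced lines gives a simple expectation for a line with 2 BL6 copies: if each allele keeps its output, the level changes by log2 of 2 times that share, up for genes read mainly from BL6 and down for genes read mainly from CAST. The question asked of the data was how far the level of chromosome 6 genes in F KSR2 followed this expectation.

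The BL6 alleles of 3 members that the results turn on are shown by the 250 bases before a RefSeq transcript start in GRCm38.p6, the reference genome of the BL6 strain, from which nearly all allelic reads of F KSR2 came. Retsat had the lowest BL6 share and was the only called member that fell, Igf2bp3 rose most, and Mest is paternally expressed in fibroblasts. The windows are chr6:72598352-72598601 on the plus strand for Retsat, chr6:49214955-49215204 on the minus strand for Igf2bp3 and chr6:30737803-30738052 on the plus strand for Mest, where the last of the RefSeq starts was used. Capitals mark CG dinucleotides, the sites at which DNA is methylated, and they number 13, 21 and 14. Of the 32851 promoter windows in the RefSeq table, 31.5%, 16.4% and 29.4% held at least as many, and 306 of the 407 symbols had an entry there.
Retsat: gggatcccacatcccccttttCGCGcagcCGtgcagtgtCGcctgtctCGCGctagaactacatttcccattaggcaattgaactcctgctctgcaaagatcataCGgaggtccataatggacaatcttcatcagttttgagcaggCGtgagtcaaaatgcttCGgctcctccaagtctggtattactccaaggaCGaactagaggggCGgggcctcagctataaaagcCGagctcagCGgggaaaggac
Igf2bp3: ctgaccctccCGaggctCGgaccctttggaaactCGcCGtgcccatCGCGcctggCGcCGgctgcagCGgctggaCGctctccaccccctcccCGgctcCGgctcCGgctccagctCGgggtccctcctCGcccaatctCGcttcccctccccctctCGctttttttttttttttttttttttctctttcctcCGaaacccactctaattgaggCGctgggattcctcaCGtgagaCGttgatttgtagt
Mest: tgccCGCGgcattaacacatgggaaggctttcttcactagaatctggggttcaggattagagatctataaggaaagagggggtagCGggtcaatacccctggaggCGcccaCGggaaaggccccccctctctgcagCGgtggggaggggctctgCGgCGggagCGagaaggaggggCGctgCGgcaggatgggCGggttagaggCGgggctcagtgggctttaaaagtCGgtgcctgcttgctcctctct

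Libraries held 13183036 to 17921280 reads on genes and 96664 to 200179 allelic reads on chromosome 6. Markers matched the labelled cell types. The 15 fibroblast markers summed to 22.1 to 66.0 RPM in F KSR2 and 20.1 to 192 RPM in the other lines, against at least 23601 RPM in female MEFs, and the 10 pluripotency markers to 4693 to 6004 RPM in F KSR2 and 3974 to 6402 RPM in the other lines. In F KSR2, 2 to 4 of the fibroblast markers had no reads.

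CAST reads made up 1.44%, 1.36% and 6.81% of the allelic reads of chromosome 6 in F KSR2 replicates 1, 2 and 3, with Wilson 95% intervals of 1.37 to 1.51%, 1.30 to 1.43% and 6.68 to 6.95% that cover counting error only. Replicate 3 therefore stood apart from the other 2. Several results below are also given without it, but not all of them, such as the counts of members whose libraries did not overlap. The lines F KSR4, M KSR3 and M KSR5, called balanced here for this chromosome only, had CAST shares of 48.0% ± 0.529, 47.3% ± 0.168 and 48.0% ± 0.582 (SD, n = 3 each). Elsewhere in the genome single lines lay at least 4 points from the median autosome of the library: BL6 made up 67.8 to 68.1% of chromosome 1, 65.0 to 65.6% of 8 and 61.5 to 61.7% of 11 in M KSR3, 56.4 to 65.9% of 8 in F KSR4, 65.1% of 15 in 2 libraries of M KSR5, and 42.6 to 44.3% of 4 and, in 2 libraries, 56.6 and 57.4% of 12 in F KSR2. TX 2i ESCs had 50.7% ± 0.541 and female MEFs 46.0% ± 0.261. The near absence of CAST reads is what marked this chromosome in F KSR2, so these values are a description.

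The loss of CAST reads ran along the whole chromosome. In 15 windows of 10 Mb, the CAST share was 0.947 to 2.64% in replicate 1, 0.915 to 2.06% in replicate 2 and 4.92 to 8.78% in replicate 3, with medians of 1.32%, 1.24% and 6.81%. No window approached the shares of the balanced lines, which were 36.6 to 58.1%. Among the 386 members with at least 30 allelic reads in F KSR2, the pooled CAST share had a median of 3.07%, ranged from 0 to 13.5%, passed 10% in 7 and was 0 in 16.

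**Figure D1:**
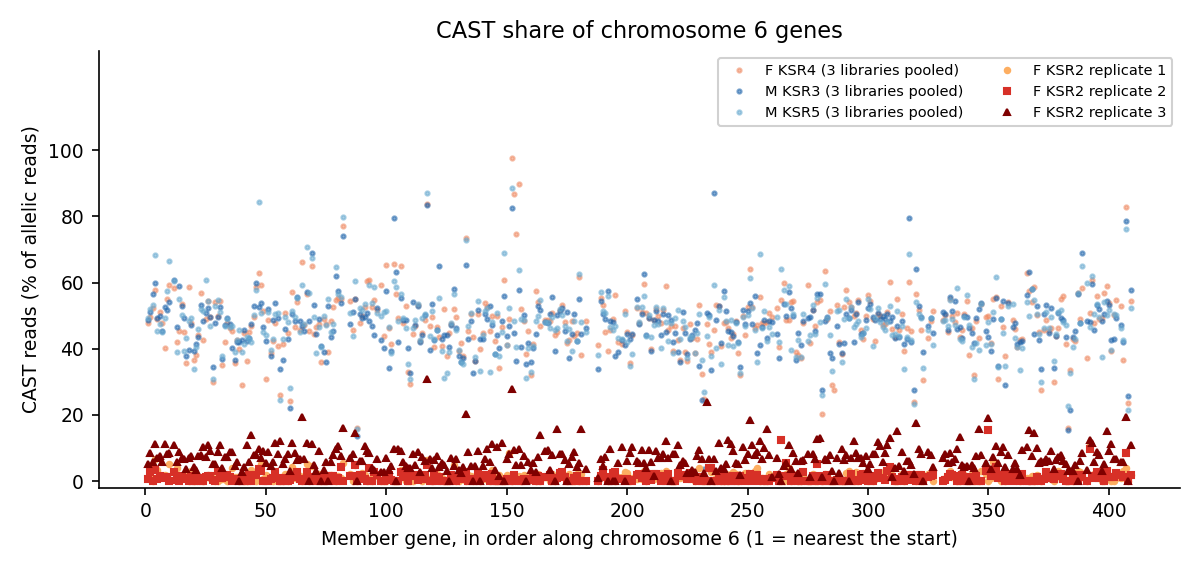
Percent of allelic reads assigned to CAST (vertical axis) for the members with at least 30 allelic reads, in their order along chromosome 6 (horizontal axis), with 1 point per library for F KSR2 and 1 per line, 3 libraries pooled, for the other lines. Most members of F KSR2 replicates 1 and 2 lie near 0, replicate 3 lies around 6.81% and the other lines around 48%.

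The output of the BL6 allele in F KSR2 was about 2 times that in the other lines. A BL6 share could be had for 374 members, those with at least 10 allelic reads in each of the 9 libraries of the other lines. Their BL6 RPM in F KSR2, relative to the mean of the 3 other lines, had a median ratio of 2.07 (log2 1.05, quartiles 0.81 and 1.22), and 372 of the 374 lay above a ratio of 1. The medians of the 3 libraries were 0.97, 1.04 and 1.05 on the log2 scale, and it was 1.03 without replicate 3. Over the 12 autosomes on which every iPSC library stayed within 4 points of its median autosome, called the balanced autosomes, the median log2 ratio was 0.03. DNA copy number was not analysed here, so the number of BL6 copies was not measured.

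With CAST reads missing and BL6 output raised, the total output of the chromosome was compared next. Chromosome 6 took 4.61%, 4.67% and 4.92% of the reads on genes in F KSR2. The 9 libraries of the other lines held 3.97 to 4.56%, below every F KSR2 library. The means were 4.73% ± 0.166 (SD, n = 3) and 4.29% ± 0.221 (SD, n = 9), a difference of 0.448 points with an exact two-sided permutation p of 0.00909, where the two-sided p is 2 times the one-sided p and 0.00909 the smallest this allows for 3 against 9 libraries. Without replicate 3 the difference was 0.354 points (exact permutation p 0.0364). As a percentage of the reads of chromosome 6 and the 12 balanced autosomes only, a choice made after the data were seen, the values were 7.66%, 7.74% and 8.03% in F KSR2 and 6.73 to 7.80% elsewhere, so that F KSR4 replicate 1 overlapped F KSR2, and the difference was 0.489 points (exact permutation p 0.0364). With the line as the unit there is 1 value against 3, and the smallest p of the same test, 0.5, was the one found. TX 2i ESCs overlapped F KSR2 with 4.54 to 4.70%, and female MEFs were higher with 5.24 to 5.58%.

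Gene by gene the shift was small. The median log2 difference of the 409 members, F KSR2 minus the mean of the other 3 lines, was 0.15, with quartiles of -0.05 and 0.33, and 280 members (68.5%) lay above 0. The 5333 genes above the same limit on the 12 balanced autosomes had a median of 0.06, with 59.0% above 0, so the members lay 0.10 higher. Without replicate 3 the median of the members was 0.10. Relative to those autosomes, the median of the members was 0.015 in replicate 1, 0.076 in replicate 2 and 0.155 in replicate 3, the library with the most CAST reads. The same difference was 0.021, -0.021 and -0.017 for F KSR4, M KSR3 and M KSR5, each set against the other 2 balanced lines. Along the chromosome, the medians of the 15 windows ranged from 0.05 to 0.37.

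In limma's fit of the 4 lines, 8 of the 409 members (1.96%) passed an adjusted p of 0.05, 7 higher and 1 lower in F KSR2. Over all 13609 genes tested, the percentage called was 1.87, or 0.874 higher and 0.999 lower, so the number of calls does not set the members apart. Over the balanced autosomes above the same limit it was 0.338, 17 genes higher and 1 lower of 5333. Without adjustment, 68 members had a p under 0.05, 55 of them higher. Without F KSR2 replicate 3 this count was 42 in limma. No matching share over all genes tested is given, so whether the count sets the members apart cannot be said. In 25 members all 3 F KSR2 libraries lay above the other 9, 6.11% against 1.59% on the balanced autosomes and 1.75% of all genes tested. In 2 members all 3 lay below, which is 0.489% against 0.244% and 1.32%. The count of calls depended on single libraries. It was 3 without replicate 3 of F KSR2 and 1 without its replicate 1 or without its replicate 2. It was 22 without replicate 1 of F KSR4 and 21 without replicate 2. The share over all genes tested is not given for these fits, so a change in all genes cannot be told from one in the members.

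Against single lines, 2 members passed against F KSR4 (0.198% of all genes tested), 2 against M KSR5 (1.46%) and 20 against M KSR3 (6.82%), of which 14 were higher and 6 lower in F KSR2 (3.15% and 3.67% of all genes tested). The members' own percentages were 0.489, 0.489 and 4.89.

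The BL6 share of the members in the other lines was the base of the prediction. It had a median of 52.1%, with quartiles of 48.5 and 56.2% and a range from 10.5 to 84.7%. The 3 lines gave like shares, within 10 points of each other in 311 of the 374 members and more than 20 points apart in 9. The predicted log2 difference accordingly had quartiles of -0.04 and 0.17, and 115 of the 374 members were predicted to differ by more than 0.2 in either direction.

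The observed differences rose with the predicted ones. Over the 374 members the least squares slope was 0.51, with an intercept of 0.12, Pearson's r 0.39 and Spearman's rho 0.38, where a slope of 1 would be a full effect. These are descriptions across genes, which share the same 12 libraries and are not replicates. The same relation over 4817 genes of the 12 balanced autosomes had a slope of 0.0051 and an r of 0.0067, and taken one by one those autosomes had slopes from -0.07 to 0.17. The slope was 0.59 without replicate 3, and in the single F KSR2 libraries it was 0.56, 0.62 and 0.36, lowest in the library with the most CAST reads. In the 9 other libraries, each set against the 2 lines it does not belong to, the slope ran from -0.19 to 0.26, below every F KSR2 library. Their predictor was the same share, which includes the library's own line, so this is not the same comparison as for F KSR2. By line, the slopes were 0.12 to 0.26 in M KSR3, -0.19 to -0.04 in F KSR4 and -0.12 to -0.05 in M KSR5.

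**Figure D2:**
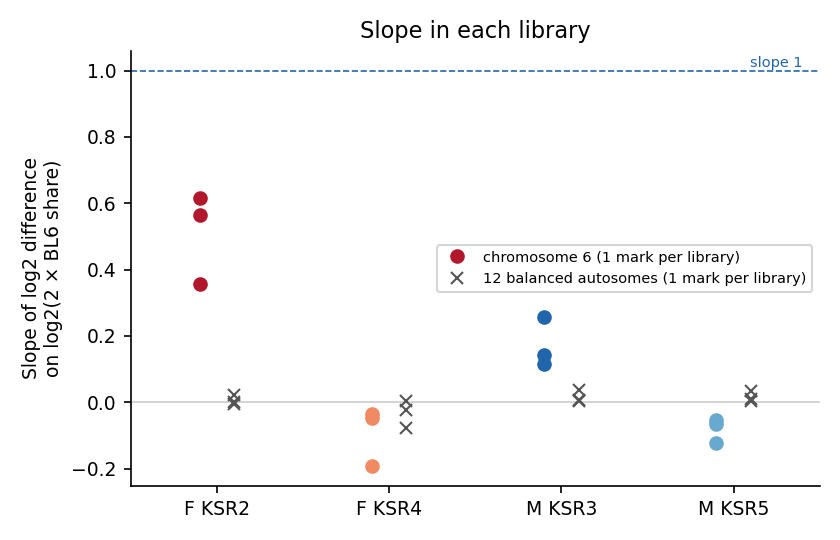
Slope of the log2 level difference on log2 of 2 times the BL6 share (vertical axis) for each library of the 4 lines (horizontal axis), with filled circles for the chromosome 6 members and crosses for the 12 balanced autosomes. The 3 F KSR2 circles lie at 0.36 to 0.62, the other circles at -0.19 to 0.26 and all crosses at -0.08 to 0.04. For every library the share is the mean of F KSR4, M KSR3 and M KSR5, which includes the own line of all but the F KSR2 libraries.

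The share that served as predictor mattered. Taken from TX 2i ESCs, it gave a slope of 0.0088 (r 0.02, rho 0.22) over 384 members, and taken from female MEFs 0.086 (rho 0.21) over 359. Among members, Peg10 and Mest had BL6 shares of only 0% and 0.061% in female MEFs, and no slope without them is given. TX 2i ESCs had few BL6 reads at several members beyond 100 Mb: of the members with at least 30 allelic reads in them, 11 of 156 beyond 100 Mb and 1 of 230 below had a BL6 share under 20%, Strap and Dera among them, the first with 0% of 3331 allelic reads. With members below 100 Mb only, a choice made after these values were seen, the TX 2i ESC share gave a slope of 0.54 and the share of the iPSC lines 0.55. With the share from F KSR4 and the level from the male lines, so that share and level came from different libraries, it was 0.31, and with the share from the male lines and the level from F KSR4 0.64. The 9 members with a BL6 share under 35% also weighed on it, since the slope over the remaining 365 was 0.69.

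**Figure D3:**
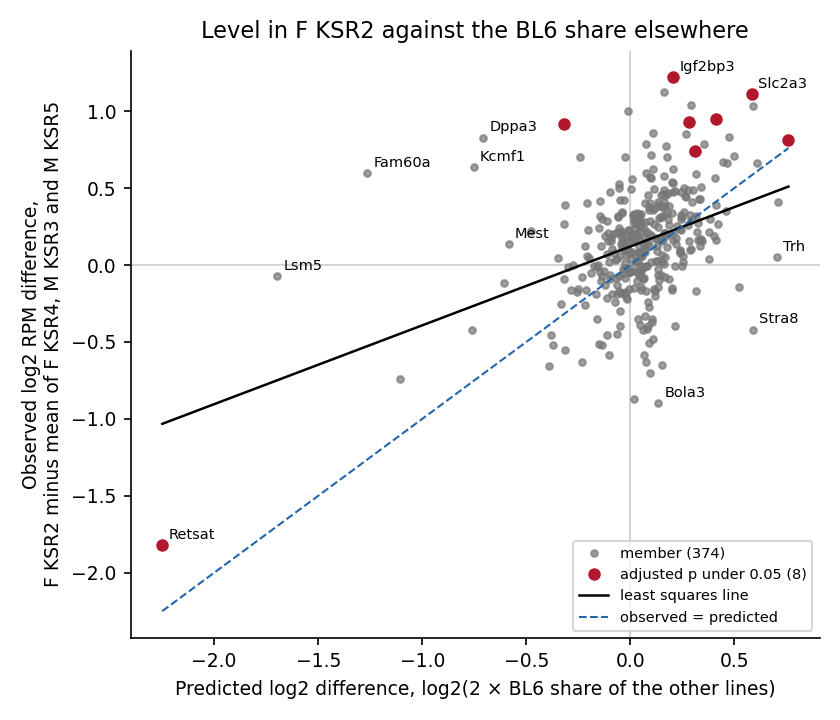
Observed log2 RPM difference, F KSR2 minus the mean of the 3 other lines (vertical axis), against the difference predicted from their BL6 share (horizontal axis) for 374 members, with the 8 members past an adjusted p of 0.05 in red. The least squares line has a slope of 0.51, and Lsm5 and Fam60a lie farthest above the dashed line of equality and Bola3 and Stra8 farthest below.

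By class of BL6 share, the median difference was -0.07 in the 9 members under 35%, -0.05 in 33 members from 35 to 45%, 0.11 in 212 from 45 to 55%, 0.29 in 99 from 55 to 65% and 0.41 in 21 above 65%. The predicted medians were -0.76, -0.24, 0.03, 0.21 and 0.47, so the observed values came near the prediction in the 2 upper classes and stayed above it in the 2 lower ones. Of the members above 65%, 19 of 21 had a positive difference, of those from 55 to 65% 88 of 99, and of those from 35 to 45% 11 of 33. On the balanced autosomes every class had a median between 0.02 and 0.06. Of 115 members predicted to differ by more than 0.2 in either direction, 92 (80%) lay on the predicted side of the balanced autosomes' median, against 49.7% of 1415 genes of those autosomes. That median is the autosomes' own, and the members as a whole lay 0.10 above it. These percentages therefore do not separate the general shift of the members from a relation to the share. Without replicate 3, 87 of the 115 (75.7%) lay on the predicted side. The median of the 35 to 45% class was then -0.21 in place of -0.05, near its prediction. The class under 35% stayed at -0.06, far from its predicted -0.76, and the classes above 45% had 0.08, 0.21 and 0.41. The lowest class includes Kcmf1, with BL6 shares of 10.35%, 42.19% and 36.15% in F KSR4, M KSR3 and M KSR5. Its difference was 0.64 against a predicted -0.75. Mest, with 37.0%, 47.4% and 15.6%, is in this class too, and so is Lsm5, whose shares of 16.2%, 16.7% and 12.9% were alike. The median CAST share per gene left in F KSR2 replicate 3 was 16.1%, 9.0%, 7.39%, 5.13% and 3.23% from the lowest to the highest class. It also fell from 3.31% to 0% in replicate 1 and from 1.82% to 0% in replicate 2. Such an order follows from classes defined by the share of the alleles, so it is not a separate result.

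**Figure D4:**
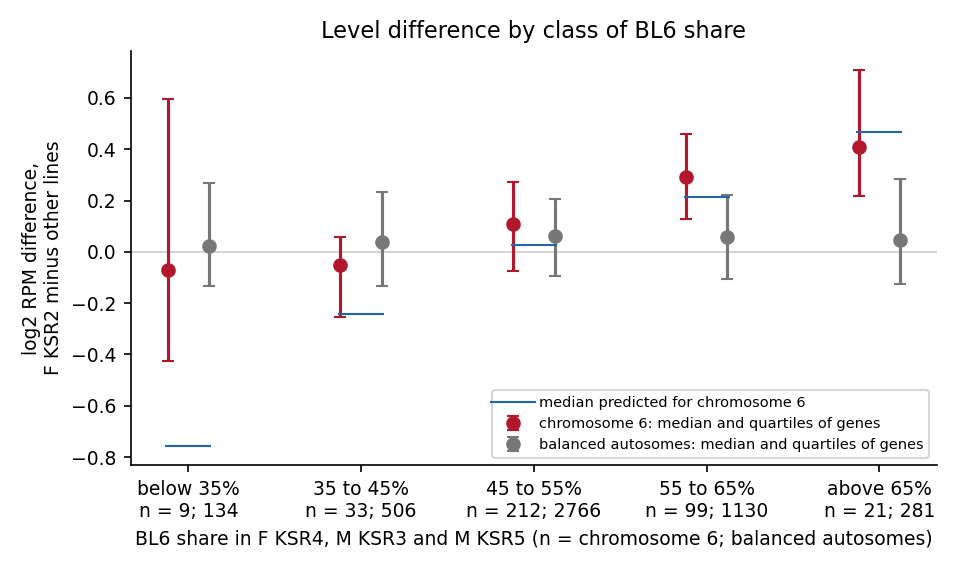
Median and quartiles over genes of the log2 RPM difference, F KSR2 minus other lines (vertical axis), by class of BL6 share in the other lines (horizontal axis), for chromosome 6 members in red and genes of the 12 balanced autosomes in grey. Blue bars mark the median predicted for chromosome 6. The red medians rise from -0.07 to 0.41 while the grey ones stay between 0.02 and 0.06.

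Retsat, which encodes an enzyme that saturates retinol, was the member with the lowest BL6 share and the largest change. Its level was 3.38, 3.12 and 3.79 log2 RPM in F KSR2 and 4.79 to 5.94 in the other 9 libraries, with a median of 5.09, so the groups did not overlap. It fell by 1.82 on the log2 scale (SE 0.22, adjusted p 0.00125 in limma), to 0.283 of the level in the other lines, where 2 BL6 copies predicted -2.25. Only 10.5% of its allelic reads elsewhere were BL6, with 2.42%, 17.4% and 11.3% for F KSR4, M KSR3 and M KSR5, while TX 2i ESCs and female MEFs had 22.7% and 13.9%. Against the male lines alone, with a mean BL6 share of 14.5%, the difference was -1.67 and the prediction -1.79. In F KSR2 replicates 1 and 2 none of its 26 and 23 allelic reads were CAST, and 10 of 36 were in replicate 3, the library with the highest Retsat level of the 3. Retsat fell in all 12 fits that left out a library.

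The other members with a low BL6 share did not all follow. Mrps33, a subunit of the mitochondrial ribosome with a BL6 share of 23.2%, had 3.01, 3.15 and 3.44 in F KSR2 and 3.49 to 4.38 elsewhere. Its groups did not overlap, and its difference of -0.74 (SE 0.25) against a predicted -1.11 did not pass the test (adjusted p 0.173). Rpia, an isomerase of the pentose phosphate pathway with a share of 29.5%, had a difference of -0.42 (SE 0.29) against -0.76.

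Lsm5, a subunit of the ring that binds RNA for decay and splicing, had a BL6 share of only 15.4% and a predicted difference of -1.70. Its levels of 5.25, 5.57 and 5.38 in F KSR2 lay within the 5.09 to 5.74 of the other lines, a difference of -0.07 (SE 0.19). Fam60a, a subunit of the Sin3 histone deacetylase complex with a share of 20.8%, had 7.42, 7.62 and 7.35 in F KSR2 against 6.26 to 7.38, a difference of 0.60 (SE 0.19, adjusted p 0.163) where -1.26 was predicted. Both had more CAST reads left in F KSR2 than most members: 6.5%, 4.9% and 30.8% for Lsm5 and 4.0%, 8.5% and 19.5% for Fam60a. Dppa3, a maternal factor that protects methylation in the early embryo, had a share of 30.6% and a difference of 0.83 (SE 0.43, adjusted p 0.435) against a predicted -0.71, with F KSR2 libraries as far apart as 3.58, 5.17 and 6.51.

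Among the members read mainly from BL6, Slc2a3, the high-affinity glucose transporter of pluripotent cells and neurons, had a share of 75.1% and the most reads of the called members. Its levels were 9.75, 9.73 and 9.92 in F KSR2 and 8.20 to 9.32 in the other lines, again without overlap. It rose by 1.11 (SE 0.19, adjusted p 0.0087), or 2.16-fold, more than the predicted 0.59. Without any 1 F KSR2 library the adjusted p was 0.0537 to 0.0594, with differences of 1.05 to 1.15. In TX 2i ESCs, with a share of 64.6%, Slc2a3 had a higher mean, 10.2 ± 0.436 (SD, n = 3) against 9.80 ± 0.108 in F KSR2, a difference that was not tested.

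Other members with high shares gave mixed values. Recql, a DNA helicase, had a share of 81.8% and a difference of 0.41 (SE 0.23). Dennd5b, an activator of Rab proteins, had 76.2% and 0.66 (SE 0.21, adjusted p 0.147) against a predicted 0.61. Tmem40, a membrane protein, had 75.3% and 1.03 (SE 0.28, adjusted p 0.0872) against 0.59. Trh, the precursor of thyrotropin-releasing hormone, had 81.4% and 0.05 (SE 0.54), with levels from 3.62 to 7.15 in the other lines. Stra8, a gene of meiotic entry, had 75.1% and -0.42 (SE 0.34) where 0.59 was predicted, the second lowest of all members relative to its prediction.

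The called members that rose beyond the prediction were led by Igf2bp3, an RNA-binding protein of fetal and tumour cells. Its levels were 7.23, 7.10 and 6.64 in F KSR2 and 4.85 to 6.17 in the other lines. It rose by 1.22 (SE 0.23, adjusted p 0.0164), or 2.33-fold, against a predicted 0.20 from a share of 57.6%. The call was lost without F KSR2 replicate 1 or 2 (adjusted p 0.114 and 0.115). The means of TX 2i ESCs, 6.25, and female MEFs, 6.41, lay between that of F KSR2, 6.99, and those of the other lines, 5.37 to 6.03.

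Eps8, an actin-capping adaptor of growth factor signalling, rose by 0.95 (SE 0.21, adjusted p 0.0355) against a predicted 0.41, from 4.10 to 5.45 elsewhere to 5.71, 5.90 and 6.15. Podxl, a sialomucin of the surface of pluripotent cells, rose by 0.93 (SE 0.22, adjusted p 0.0434) against 0.28, from 3.97 to 4.92 elsewhere to 5.33, 5.31 and 5.68. Both lost the call without any 1 library of F KSR2 or M KSR3 (adjusted p up to 0.185 and 0.222), Podxl also without any 1 of M KSR5 and Eps8 without its replicate 2. Gadd45a and Tgoln1, which were also called, fell outside the naming rule and are given after their values were seen. Gadd45a, a stress-induced gene of growth arrest and repair, rose by 0.74 (SE 0.17, adjusted p 0.0464) against 0.31, from 4.93 to 6.67 elsewhere to 6.68, 6.78 and 6.69. Its call was lost without any 1 library of F KSR2 or M KSR5 and without M KSR3 replicate 2 or 3, with an adjusted p of up to 0.217.

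**Figure D5:**
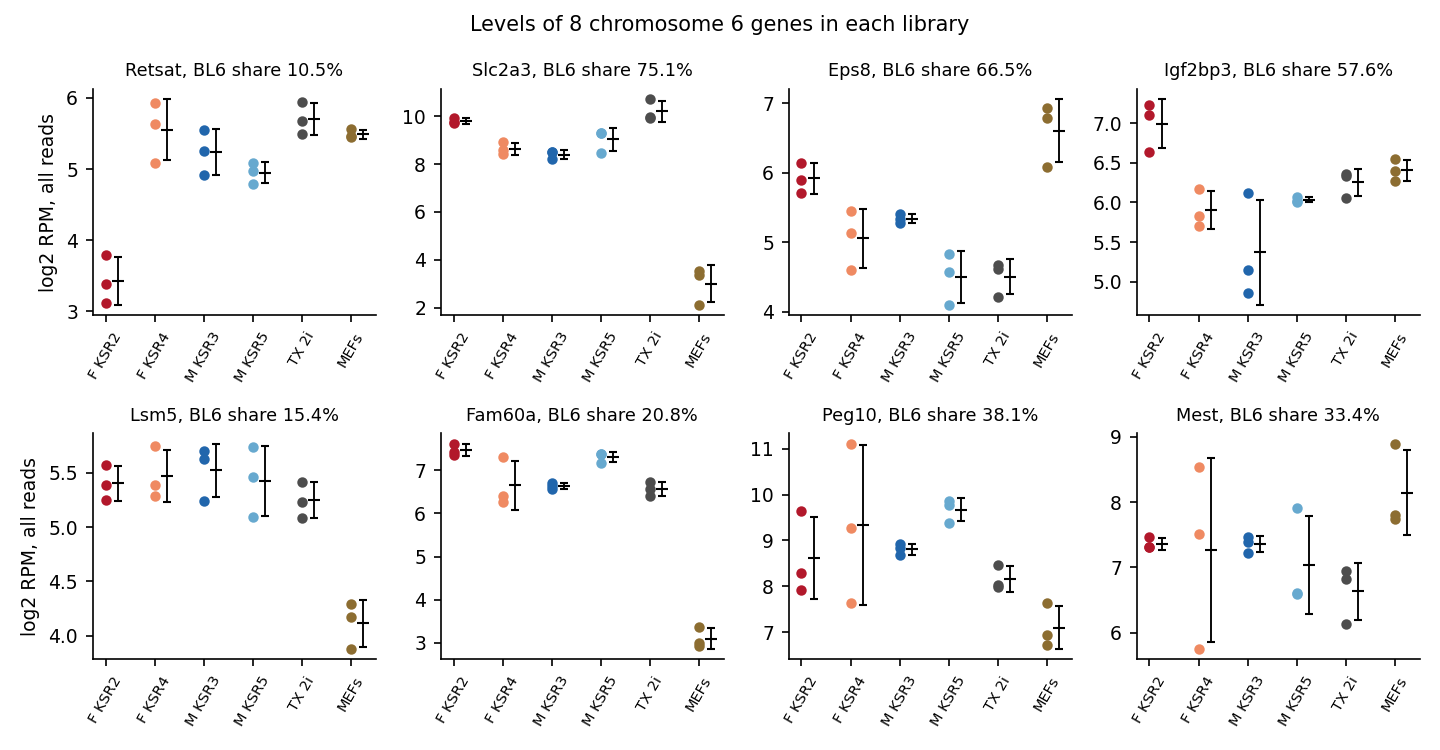
Log2 RPM of all reads (vertical axes, each with its own range) in the 3 libraries of each group (coloured points), with the mean and SD in black, for 8 members titled with their BL6 share in the other 3 iPSC lines. The Retsat points of F KSR2 at 3.12 to 3.79 lie below, and those of Slc2a3, Eps8 and Igf2bp3 above, all points of F KSR4, M KSR3 and M KSR5, while Lsm5, Peg10 and Mest overlap.

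Tgoln1, a protein of the trans-Golgi network that ends next to Retsat, rose by 0.92 (SE 0.20, adjusted p 0.0373) although its BL6 share of 40.1% predicted -0.32. Its call was lost without any 1 library of F KSR2 or M KSR3 and without M KSR5 replicate 1 or 2, with an adjusted p of up to 0.222. That share rested on F KSR4, where only 1.74%, 4.49% and 45.7% of its allelic reads were BL6, against 48.1 to 60.8% in M KSR3 and 43.1 to 57.1% in M KSR5. Its neighbours Tcf7l1, a repressor of Wnt targets, and Kcmf1, a ubiquitin ligase, also lacked BL6 reads in F KSR4 replicates 1 and 2, with 2.86% and 2.35% and with 1.79% and 0%, and had 35.9% and 24.6% in replicate 3. Retsat, on the other side, had 0% BL6 of 91 and of 127 allelic reads in these replicates and 7.08% in replicate 3, so its low share and the prediction from it rest in part on F KSR4 too. The flanking members Capg and Tmsb10 had 40.4 to 59.2% in all 3. Mean levels in F KSR4 were 4.72 for Tgoln1, 5.61 for Tcf7l1 and 6.34 for Kcmf1, the lowest of the 4 lines in each case, and 5.55 for Retsat, the highest. In Tgoln1 the mean of F KSR2, 6.30, also lay above those of M KSR3, 5.82, and M KSR5, 5.61, which had even shares. The slope over all members was 0.47 without those starting between 72 and 73 Mb and 0.48 against the male lines only.

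Members with an even BL6 share could also lie far from 0. Bola3, a factor of mitochondrial iron-sulfur clusters, had 3.28, 3.25 and 3.07 in F KSR2 and 3.19 to 4.74 elsewhere, a difference of -0.90 (SE 0.27, adjusted p 0.120) where 0.13 was predicted, the lowest relative to its prediction. Capg, an actin-capping protein, had -0.87 (SE 0.36, adjusted p 0.285) against 0.02, with 4.82 in replicate 3 and 3.11 and 3.03 in the others.

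Of 16 imprinted genes listed for the chromosome, 14 were tested in limma, and 0 passed, also in each of the fits that left out a library and with voom on recovered reads. Without adjustment 1 of the 14, Herc3, had a p under 0.05. The 7 that are members, Peg10, Ppp1r9a, Casd1, Mest, Copg2, Klhdc10 and Herc3, had differences from -0.65 to 0.74 with a median of 0.09. Of these 7, only Peg10 and Mest were read almost only from CAST in female MEFs. The others were read from both alleles there, with BL6 shares of 52.5 to 58.8%, so the count and median are mostly not those of genes read from 1 allele. Herc3 had the highest difference, 0.74 (SE 0.21, adjusted p 0.0979), with all 3 F KSR2 libraries above the other 9.

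Peg10, a retrotransposon-derived gene of the placenta, was read from CAST only in female MEFs, with 0% BL6 of 1432 allelic reads. In the iPSC lines it was read from both alleles, with BL6 shares of 42.2%, 40.3% and 31.8% for F KSR4, M KSR3 and M KSR5, while TX 2i ESCs had 51.6%. In F KSR2, 91.7% of its 4346 allelic reads were BL6, and its level was 7.93, 8.29 and 9.64 against 7.63 to 11.1 in the other lines. The difference was -0.65 (SE 0.51, adjusted p 0.650) where -0.39 was predicted, and F KSR4 alone spanned the whole range of the other lines. Its neighbour Sgce, which codes for a sarcoglycan and is not a member, likewise had 0% BL6 reads in MEFs. Sgce had 30.8 to 46.2% in the balanced iPSC lines and 94.9% in F KSR2. Its difference was -0.11 (SE 0.42), with F KSR2 levels of 1.91, 3.46 and 4.50.

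Mest, an enzyme of the hydrolase fold, had 0.061% BL6 reads of 1640 in female MEFs. The balanced lines differed, with BL6 shares of 37.0%, 47.4% and 15.6% for F KSR4, M KSR3 and M KSR5. F KSR2 had 94.6% BL6 reads, and its levels of 7.31, 7.46 and 7.31 lay inside the 5.75 to 8.54 of the other lines, a difference of 0.14 (SE 0.42) where -0.58 was predicted. The maternal copies of Peg10, Sgce and Mest, silent in the fibroblasts, gave nearly all of their RNA in F KSR2. None of these genes differed past the threshold from the lines that keep a paternal copy. With SEs of 0.42 to 0.51 this does not show equal levels.

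Other groups of members were listed by function. Of the 6 pluripotency and germline genes, 1 rose (Slc2a3) and 5 did not pass, with a median of 0.47. Nanog, a core factor of pluripotency, had 8.97, 8.25 and 9.75 against 7.75 to 9.00, a difference of 0.47 (SE 0.27, adjusted p 0.505). None of the 15 chromatin regulators passed (median 0.27), and the highest was Trim24, a bromodomain reader, with 0.57 (SE 0.16, adjusted p 0.0882). None of the 12 replication, repair and cell cycle genes passed (median 0.11), none of the 7 RAS and RAF signalling genes (median 0.26) and none of the 11 translation, RNA binding and secretion genes (median 0.03). Of the 8 glycolysis and one-carbon genes, Slc2a3 rose and 7 did not pass (median 0.42), with 0.37 for Gapdh, 0.47 for the hexokinase Hk2 and 0.53 for Mthfd2 of the mitochondrial folate pathway, and with -0.42 for Rpia and -0.17 for the aldose reductase Akr1b3, the 2 members below 0. Of the lists in which none passed, the first 3 held 1 member each with an unadjusted p under 0.05 in limma and the last 0. These medians stand against 0.15 over all members.

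The Rosa26 locus is widely used to insert transgenes, and the paper's methods place there the rtTA transgene for which the fibroblasts were genotyped. A relation of that transgene to the values below was not tested. The transcript Gt(ROSA)26Sor of this locus was too low to be a member but was compared in limma. It fell by 1.82 (SE 0.41, adjusted p 0.0377), with 13, 8 and 14 reads in F KSR2 and 24 to 65 in the other lines. Its allelic reads were mainly CAST in the balanced lines, with 136 CAST and 13 BL6 reads in all, and mainly BL6 in TX 2i ESCs, with 1479 of 1522. F KSR2 had 4 BL6 reads, from replicates 1 and 2, and 6 CAST reads, all from replicate 3. The call was lost under most fits that left out a library, as with any 1 F KSR2 library (adjusted p 0.0793 to 0.210). Its neighbours Thumpd3 and Setd5 had differences of 0.15 and 0.32, and neither passed.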

How the data were processed

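RNA from 18 libraries, 3 for each of 6 groups, was analysed, and the methylation amplicons of the same series were not used here. Per the methods of the study and the submitters' processing notes, the authors trimmed reads with Trim Galore 0.6.1, aligned them to GRCm38 with HISAT2 2.1.0 and counted them on genes in SeqMonk, and they deposited log2 RPM values, 4 columns per library, for all reads, reads without an informative SNP, BL6 reads and CAST reads. The labels and the methods give different read lengths. Values are not corrected for gene length, and a gene without reads is held at 0.9 read. Whole reads were recovered from the deposited log2 values, and at least 99.97% of a library's values lay within 0.05 of a whole number.

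Levels were compared on the deposited log2 values with limma 3.58.1 in R 4.3.3, with an intensity trend, 1 mean per line and the contrast of F KSR2 with the mean of the other 3 lines, for 13609 genes above 0 in at least 3 of the 12 libraries. Genes were called at p under 0.05 after Benjamini-Hochberg adjustment over all genes tested. Replicates were not stated to come from separate reprogrammings, so p-values measure the spread between libraries of a clone. BL6 shares are the mean over lines of pooled reads with 0.5 added to each allele. Balanced autosomes (12) had all iPSC libraries within 4 points of the library's median BL6 share, a rule set after those shares were seen. On simulated data for this comparison with 200 changed genes among 13306, 92% of 2-fold and 100% of 4-fold changes were recovered, with 10 false calls. The simulated counts had a single dispersion of 0.05, no other differences between lines, and changed genes only above a mean log2 of 2. Between real replicates, the median squared difference was 64.1 to 94.7 times counting noise in F KSR4. In the other iPSC lines it was 3.09 to 31.7 times, so these percentages may not hold for the real libraries. Other steps used Python 3.11.15, numpy 2.4.6, pandas 2.3.3, scipy 1.17.1 and matplotlib 3.10.9.

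The members and gene lists were chosen with earlier results of these data known. Named genes are the listed genes, the 6 highest and 6 lowest BL6 shares, the 5 largest called changes in each direction without overlap of libraries, the 3 farthest from the prediction in each direction, and members above 20% CAST reads in F KSR2, of which there were 0. A result under this rule is not reported here. Summaries stand in for listed genes that did not pass. Gene symbols were used, since identifiers in the table repeat between neighbours. Alternatives were log2 of RPM plus 1, other filters, voom, centring, all 18 libraries, a replicate block, other sources of the BL6 share and leaving out each library.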

Additional observations from a re-analysis of the deposited data

Results flagged for a closer look

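In TX 2i ESCs, whose reads enter no test of F KSR2, CAST reads made up 72.3%, 72.7% and 74.4% of the allelic reads between 130 and 140 Mb of chromosome 6 in replicates 1, 2 and 3, while the same window held 44.4%, 46.2% and 45.3% for the F KSR4, M KSR3 and M KSR5 lines and 45.1% for female MEFs. The neighbouring windows from 120 to 130 Mb and from 140 to 150 Mb held 52.9% and 53.3% in TX 2i ESCs. Single genes weighed on the share of this window. Strap, which lies in it, had 0% BL6 of 3331 allelic reads over the 3 replicates. The whole window held 5332, 5358 and 4733 allelic reads in replicates 1, 2 and 3, and no share without Strap is given. The window stands out because it lies outside the comparison and above the level of all other groups. The difference was not tested.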

How the results depend on the processing

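Of the 409 members, 8 passed as reported, 5 without a filter on low values, 21 with all 18 libraries in the fit, 4 without an intensity trend, 2 against F KSR4 alone and 0 with the means of the lines only, where 14 had an unadjusted p under 0.05 in limma. Leaving out single libraries gave 1 to 22 calls, and every library but F KSR4 replicate 3 moved the count by over 1.5 times. There were 3 to 5 calls without a library of M KSR3 or M KSR5. Of the fits in this paragraph, only the reported one and that against F KSR4 have a share over all genes tested given here. For the others a change in all genes cannot be told from one in the members. Replicate numbers did not pair the libraries: deviations of same-numbered libraries correlated at -0.306 to 0.575, and 13 of 36 libraries and lines matched best by number. With a replicate block 7 members passed. The imprinted genes gave 0 calls under every fit run. The slope of 0.51 became 0.0088 with the TX 2i ESC share, 0.086 with the female MEF share, 0.31 with the F KSR4 share against the male lines and 0.69 without the 9 members below 35% (chosen after seeing the data), and was 0.46 to 0.59 without single libraries. The median difference of 0.15 was 0.26 against F KSR4 alone and 0.10 to 0.20 without single libraries. The chromosome 6 percentage stayed higher in F KSR2, by 0.354 to 0.512 points without single libraries, and the BL6 output ratio stayed at 1.02 to 1.07 (log2). The CAST share of F KSR2, a mean of 3.21%, was 1.40 to 4.13% without single libraries. Without F KSR2 replicate 3 (chosen after seeing the data), members from 35 to 45% had -0.21 and those below 35% -0.06. Members above 65% had 0.34 with the TX 2i ESC share, also below 100 Mb. Among single genes and settings, 2042 kept their side of the threshold, 84 lost it and 10 gained it, with no change of direction in a call. At 10 allelic reads a share is coarse, and the cause of these changes was not tested.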
